A study of Mus musculus with 7 samples.

Results

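In CD4 T cells of DO11.10 mice, whose transgenic receptor is specific for an ovalbumin peptide, small RNA was profiled by array, and 4 probes whose signal was much higher in activated than in naive cells are described here. The probes are UC1006364, UC1006410, UC1005054 and UC1004820, out of 1874 probes on the array and 342 features tested. They were picked by name because their signal was raised against naive cells, so their differences from naive cells chose them and are given as a description without a test. The comparison between the activated groups was not used in that choice and was tested, though the detection filter bears on it for UC1005054 and UC1004820.

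The 7 arrays fell into 3 groups of Balb/c cells from the spleen and lymph nodes of pooled mice aged 6 to 8 weeks. The naive group (2 arrays) held CD25-negative, CD44-low DO11.10+ CD4+ cells from DO11.10 Rag2+/+ mice. For the activated groups, CD4+ cells of DO11 Rag2-/- mice were injected into a WT Balb/c host (2 arrays) or an sOVA host (3 arrays), an abbreviation the labels do not expand. Hosts received LPS-activated dendritic cells loaded with Ova peptide 24 h after transfer, and CD44-high DO11.10+ cells were sorted 5 days after transfer. Naive and activated cells therefore differed in Rag2 genotype, transfer and sort gate as well as in activation, and these cannot be told apart. The titles name an OVA immunized host and an sOVA immunized sOVA host, so that immunization and host cannot be told apart either. Activation is called in vitro by the title of the series and in vivo by its design text and protocol. Nothing in the labels says that replicates came from separate pools, so p-values measure only the spread between these arrays, which may be technical.

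MicroRNAs are cut as a duplex from a hairpin. One arm, the guide, usually stays in Argonaute and pairs with target mRNAs through its seed, bases 2 to 8, while the other arm, the passenger, is mostly degraded and is usually the scarcer one. Other short RNAs that a labelled array can pick up include pieces of the small nuclear RNAs, the abundant RNAs of the spliceosome. T cell activation is known for a rise of miR-155 and miR-21 and a fall of miR-150.

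Each probe carries the reverse complement of its target, after 10 T at one end and, on 1857 of the 1874 probes, a leading G. The target of UC1006364 and that of UC1006410 are shown first, with the only other target on the array that holds the run common to both (3 of 1874 targets hold it). Capitals mark this 12-base run, and letters are written as DNA.
UC1006364: aaTGGATTTTTGGAgcagg
UC1006410: TGGATTTTTGGAtcaggga
UC1004661: tattaaaTGGATTTTTGGA
The first is the sequence catalogued in human as miR-1246 and the second that catalogued as miR-1290. These names are background knowledge, since neither target matches a mature sequence in the RefSeq mouse miRNA table, which 612 of the 1874 probes did. Placed without gaps from position 3 of the UC1006364 target, the UC1006410 target overlapped it by 17 bases with 1 substitution, G15T, counted from the 5′ end of the UC1006364 target. As textbook background, U2 small nuclear RNA, which pairs with the branch point of introns, contains the whole stretch read by UC1006364. It also contains that read by UC1004661, which shares its 3′ 14 bases with the 5′ 14 bases of the UC1006364 target. A signal on UC1006364 can therefore come from a piece of U2 or from a separate small RNA with these letters. The arrays cannot tell these apart. The UC1006410 target differs from the same stretch at 1 of the 17 overlapping bases, and a signal from U2 on UC1006410 was not tested either.

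The other pair of probes reads arms of known mouse hairpins, shown here because their identity rests on single bases. Capitals mark the seed. RNA letters are mature sequences from RefSeq (GRCm38.p6), and DNA letters are probe targets.
UC1005054: aCTCTTTCcctgttgcactact
mmu-miR-130b-5p: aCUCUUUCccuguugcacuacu
mmu-miR-130b-3p: cAGUGCAAugaugaaagggcau
UC1004820: cAACACCAgtcgatgggctgt
UC1004821: cAACAGCAgtcgatgggctgtc
mmu-miR-21a-3p: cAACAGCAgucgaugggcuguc
mmu-miR-21a-5p: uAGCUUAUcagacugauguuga
UC1005054 matched miR-130b-5p over all 22 bases. This is the passenger arm of Mir130b on chromosome 16 (17124061 to 17124142, minus strand), which lies within the span of the gene 2610318N02Rik and 257 bases from Mir301b. UC1004820 matched the 3p, passenger arm of miR-21 over 21 bases with 1 substitution against the mouse sequence, G6C, counted from the 5′ end of mmu-miR-21a-3p and lying in the seed. With that base it is the human form of miR-21-3p, as background knowledge. A separate probe, UC1004821, holds the mouse form. Mir21a lies on chromosome 11 (86584067 to 86584158, minus strand) within the span of Vmp1, a gene of autophagosome formation. The table used gives spans only, so exon or intron was not read. The label under which the 4 probes were gathered, outside textbook families, thus holds less well for UC1004820, whose hairpin also gives the textbook activation miRNA miR-21, and for UC1005054, whose hairpin gives miR-130b-3p of the miR-130 and miR-301 family.

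Levels are log2 spot signals minus the 75th percentile of the same array, taken over the 253 probes detected on all 7 arrays, so that 0 is a bright probe. A probe was called detected where at least 50% of its 7 spots were flagged well above background. The scaling signal ran from 2729 to 15743, with WT host replicate 2 and sOVA host replicate 3 the dimmest arrays, and 309 to 467 probes were detected per array. No spot was saturated, and the small number of arrays limits the precision. All arrays lay on 1 slide, in 2 rows that each held arrays of every group. The haematopoietic miR-142a-3p was detected on all 7 arrays, at 1.89 and 2.22 in naive cells and -0.43 to 1.55 in host arrays. Of the 2 miRNAs listed as lymphoid 1 was matched to a probe, miR-181a-5p, also detected on all 7 arrays. Its level was 0.75 and 0.62 in naive, -2.94 and -2.38 in WT host, and -0.47, -0.36 and -2.05 in sOVA host cells. Of the 13 miRNAs listed for T cell activation 12 were tested, of which 8 were higher in WT host and 10 in sOVA host cells and none was lower (limma, Benjamini-Hochberg adjusted p under 0.05; over all features tested 18.7% and 21.1% were called). Their median log2 difference was 2.47 in WT host and 2.71 in sOVA host cells, against 0.27 and 0.11 over all 342 features. Of the 12, miR-182-5p, miR-183-5p, miR-96-5p and miR-212-3p entered the test only through host groups that detected them on all their arrays. They were higher there, so the filter in part fixes these counts and medians. Of the 22 miRNAs listed for naive T cells 18 were matched to a probe and tested. None of the 18 was called in either direction, with medians of -0.68 and -0.96. miR-150-5p, miR-30b-5p, miR-30d-5p and miR-101b-3p were not among the 18, so the fall of miR-150 named above was not examined here.

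UC1006364 had a far higher level in both activated groups than in naive cells. Its level was -9.05 and -7.18 in the naive replicates, -2.00 and -0.50 in WT host, and -0.21, -1.85 and 1.99 in sOVA host. All 5 host arrays stood above both naive arrays. The nearest WT host and naive arrays lay 5.18 log2 units apart. The probe was well above background on all 7 spots of every array except naive replicate 1, where no spot was. The group means ± SD were -8.12 ± 1.32 (n = 2) in naive, -1.25 ± 1.06 (n = 2) in WT host and -0.02 ± 1.92 (n = 3) in sOVA host. The means differed from naive by 6.86 (116-fold) in WT host and 8.09 (273-fold) in sOVA host. These sizes rest in part on naive replicate 1, where the probe was not detected.

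The separation was present before scaling. The signal of UC1006364 was 22.4 and 109 in naive cells and 2316 to 10812 in host cells, so that the lowest host array was 21.3 times the highest naive array. The SD of log2 signal over the spots of 1 array was 0.02 to 0.06 on the 6 arrays where the probe was detected. The highest and lowest sOVA host arrays lay 3.83 log2 units apart.

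UC1006410 was detected in host cells only. Its level was -9.29 and -10.59 in naive, -5.12 and -4.03 in WT host, and -4.08, -6.20 and -1.54 in sOVA host cells. No spot was well above background in naive cells and all 7 were on each of the 5 host arrays. Naive cells therefore give only a bound, and the level was at least 8.21-fold higher in WT host and at least 12.8-fold higher in sOVA host cells. A bound sets the mean of the bright group against, per naive array, the higher of the lowest level well above background and the probe's own level. The means ± SD were -9.94 ± 0.91 (n = 2), -4.58 ± 0.77 (n = 2) and -3.94 ± 2.34 (n = 3), of which the naive mean was not measured. On both naive arrays all 7 spots held a surrogate, a floor value written by the scanner software in place of a signal. Unscaled, the lowest host signal (151) was 7.97 times the highest naive value (18.9), itself such a surrogate.

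Within the host arrays UC1006364 and UC1006410 were ordered much alike. Both were highest on sOVA host replicate 3, and both were lower on sOVA host replicate 2 and WT host replicate 1 than on sOVA host replicate 1 and WT host replicate 2. Over the 7 arrays their levels correlated at r = 0.95, which rests largely on the step between naive and host arrays and is given as a description. The pairs among the 4 probes had r of 0.87 to 0.95, which the choice of probes higher in host cells largely fixes. The targets of the first and second probe share an unbroken run of 12 bases and overlap by 17 bases with 1 substitution. Cross-hybridization of the same RNA on both probes was not tested.

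**Figure D1:**
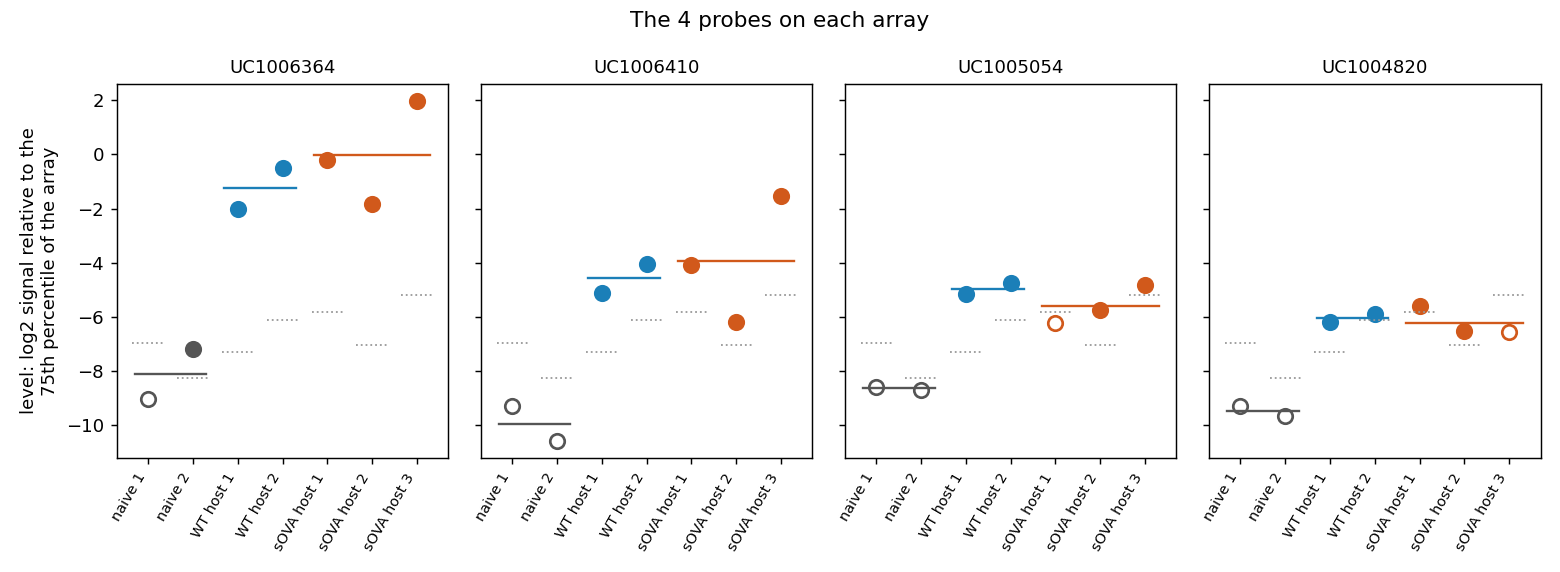
Level of each of the 4 probes (log2 signal relative to the 75th percentile of the array) on the 7 arrays; filled points were detected, open points were not, short solid lines are group means and dotted lines mark the lowest level well above background on that array. Every host point lies above both naive points for each probe, and sOVA host replicate 3 stands highest for UC1006364 (1.99) and UC1006410 (-1.54).

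The array carried probes to other stretches of small nuclear RNAs, chosen after their values were seen. They were assigned to U1, U2 and U6 by runs of consecutive probe names and textbook knowledge. Their targets were not aligned to these RNAs here. The assignments and the places named within each RNA are therefore background knowledge. UC1004661, whose target overlaps that of UC1006364 within U2, was not well above background on a single spot of any of the 7 arrays. On each array all 7 of its spots held a surrogate, with values of 10.2 to 35.4, so no signal was measured. UC1004657, which reads U2 near its 5′ end, was detected everywhere, at -2.23 and -1.67 in naive, -0.61 and -0.52 in WT host, and -1.06, -1.24 and -0.10 in sOVA host cells. Its host arrays stood above the naive arrays by level but by a smaller step, 1.39 in WT host and 1.15 in sOVA host, and before scaling they overlapped. The other 3 U2 probes were detected on no array.

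U1 small nuclear RNA, which pairs with the 5′ splice site, was read by 4 probes, all detected on all arrays. For 3 of them every host array stood above both naive arrays by level, and for 2 of them also before scaling. UC1004653, at the 5′ end of U1, had levels of -0.89 and -0.91 in naive, 0.35 and 1.75 in WT host, and 0.75, 0.00 and 2.60 in sOVA host cells. Like UC1006364 it was highest on sOVA host replicate 3. Of 5 probes to U6, the catalytic RNA of the spliceosome, 1 had all host arrays above the naive arrays by level and 0 did before scaling. Whether small nuclear RNA, its breakdown or RNA quality had a part in the values of UC1006364 and UC1006410 was not tested.

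**Figure D2:**
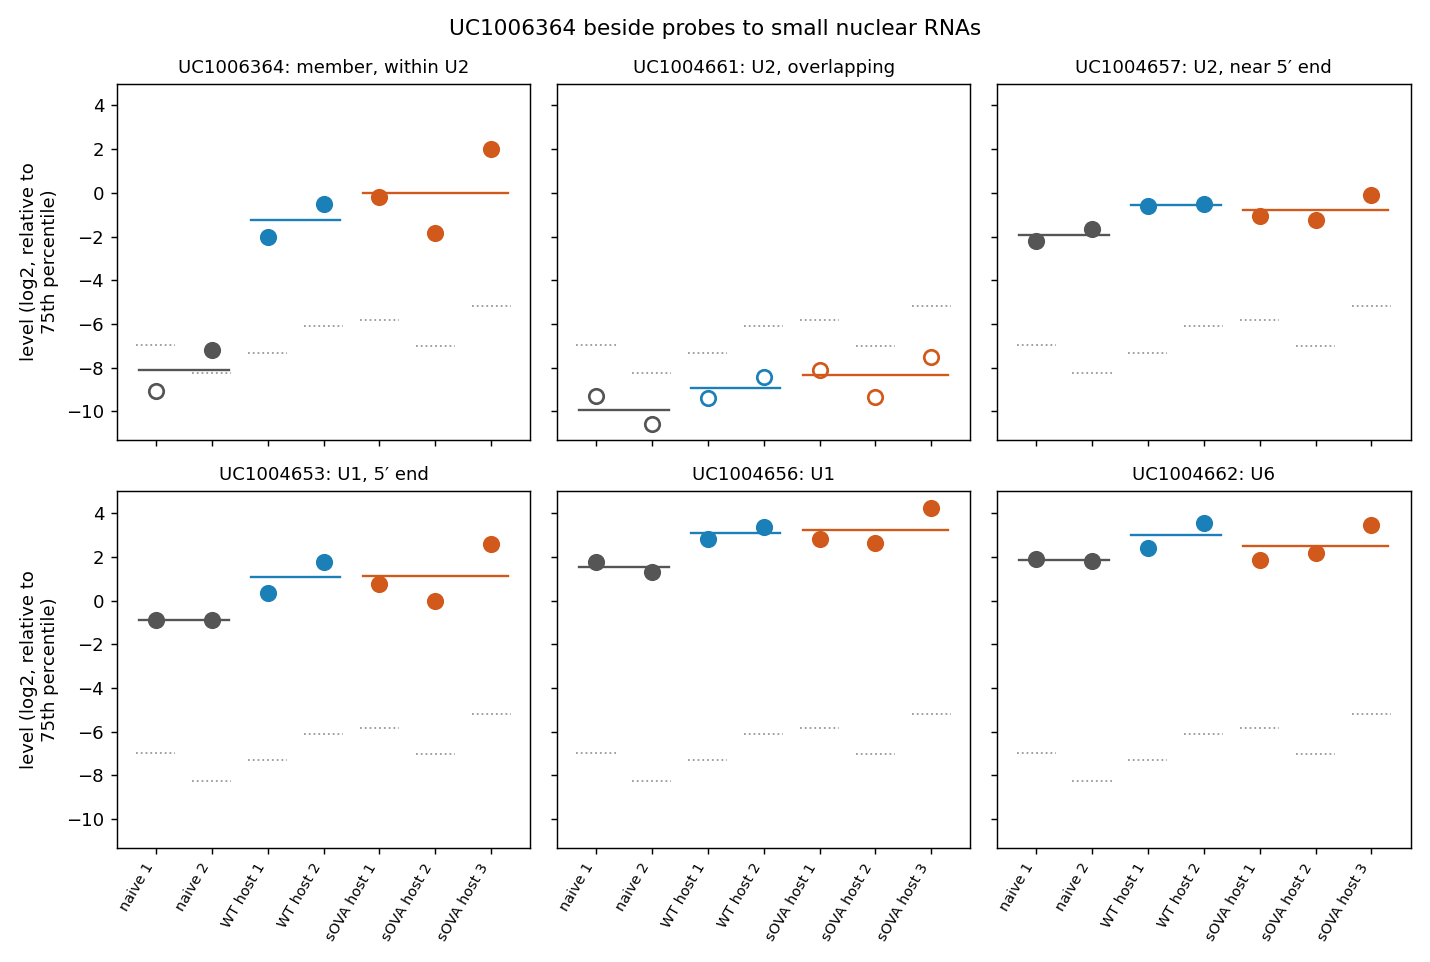
Level (log2, relative to the 75th percentile) of UC1006364 beside 2 probes to U2, 2 to U1 and 1 to U6 on the 7 arrays, drawn as in the plot of the 4 probes with open points not detected and dotted lines at the lowest level well above background. UC1006364 stands 6.86 higher in WT host than in naive cells, UC1004657 1.39 and UC1004653 1.95, while UC1004661 is detected on no array.

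Markers of other cells were compared on the same arrays. The erythroid miR-451a was detected on every array, at -0.97 and -1.84 in naive, -3.33 and -1.80 in WT host, and -1.09, -4.12 and 0.94 in sOVA host cells. Among the host arrays it stood in the order sOVA host replicate 3, sOVA host replicate 1, WT host replicate 2, WT host replicate 1 and sOVA host replicate 2, from high to low. UC1006364 had the same order except for the last pair, and UC1006410 except that WT host replicate 2 stood just above sOVA host replicate 1. Its part in their spread was not tested. The erythroid list of 3 had miR-144-3p and miR-144-5p detected on no array, and its summed signal, as multiples of the array's 75th percentile, was 0.28 to 0.51 in naive, 0.10 to 0.29 in WT host and 0.06 to 1.93 in sOVA host cells. The myeloid list of 2 was detected less in host than in naive cells, with sums of 0.12 to 0.14 in naive, 0.015 to 0.022 in WT host and 0.01 to 0.04 in sOVA host cells, and miR-223-5p detected on no array. The epithelial list of 7 summed to 0.09 in naive, 0.04 to 0.05 in WT host and 0.05 to 0.11 in sOVA host cells, and the 1 endothelial arm on the array to at most 0.02 in any group. The epithelial list went both ways. miR-205-5p was detected on all 7 spots of sOVA host replicates 1 and 2 (-4.87 and -4.08) and was not detected on the other arrays, while miR-200a-3p and miR-200b-3p were detected on both naive arrays and on no host array. The part of other cell types in the 4 probes was not tested, and in sorted cells fewer cells of a type and less RNA per cell cannot be told apart.

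UC1005054, the miR-130b passenger arm, was at -8.58 and -8.69 in naive, -5.17 and -4.76 in WT host, and -6.23, -5.74 and -4.82 in sOVA host cells. No spot was well above background in naive cells. All 7 spots were on 4 of the 5 host arrays, and 0 were on sOVA host replicate 1, where the dimmest detected probe had a signal of 175, the highest such limit of the 7 arrays. The level was at least 6.27-fold higher in WT host cells. The same calculation gave 4.05-fold for sOVA host cells, but its mean includes replicate 1, where the probe was not detected. It is therefore not a strict bound. The measured means ± SD were -8.63 ± 0.08 (n = 2), -4.97 ± 0.29 (n = 2) and -5.60 ± 0.72 (n = 3). Unscaled, the lowest host signal (96.7) was 2.53 times the highest naive signal (38.2).

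A shorter probe nested in it, UC1005053, lacks the last base and had the same order of groups. It was detected on both WT host arrays, on 1 of the 3 sOVA host arrays and on no naive array, and its level was at least 3.37-fold higher in WT host cells. The guide arm of the same hairpin, miR-130b-3p, was detected on all arrays. Its level was -4.55 and -4.20 in naive, -1.88 and -1.79 in WT host, and -2.90, -2.78 and -2.28 in sOVA host cells, a step of 2.54 and 1.73. Both arms were thus higher in every host array than in either naive array by level. Before scaling this held for the passenger arm and not for the guide arm, whose lowest host signal was 0.66 times the highest naive signal.

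UC1004820, the probe whose target is the human form of the miR-21 3p arm, was read here on mouse RNA. It was at -9.29 and -9.67 in naive, -6.19 and -5.88 in WT host, and -5.59, -6.51 and -6.57 in sOVA host cells. All 7 spots were well above background on both WT host arrays and on sOVA host replicates 1 and 2, and 0 were on sOVA host replicate 3 or in naive cells. The level was at least 3.00-fold higher in WT host cells. The same calculation gave 2.62-fold for sOVA host cells, but its mean includes replicate 3, where the probe was not detected. It is therefore not a strict bound. The means ± SD were -9.48 ± 0.27 (n = 2), -6.03 ± 0.22 (n = 2) and -6.22 ± 0.55 (n = 3). On naive replicate 1 all 7 spots held the surrogate, so no signal was measured there. Unscaled, the lowest host signal (28.7, on the array where it was not detected) was 1.49 times the highest naive signal (19.3).

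The mouse form of this arm was also higher in every host array than in either naive array. UC1004821 was at -8.42 and -8.16 in naive, -5.10 and -4.73 in WT host, and -4.64, -5.31 and -5.30 in sOVA host cells. It was detected on 1 of the 2 naive arrays and 4 of the 5 host arrays, and its means differed from naive by 3.37 in WT host and 3.21 in sOVA host cells. The cells came from mice, and the mouse sequence differs from the UC1004820 target by 1 substitution. The values of UC1004820 therefore do not show an RNA separate from the mouse form. RNA from the mouse hairpin hybridizing to the human-form probe was not tested. The guide arm, miR-21a-5p, which is among the miRNAs known to rise when T cells are activated, was at 1.01 and 0.72 in naive, 4.34 and 4.12 in WT host, and 3.86, 3.87 and 3.36 in sOVA host cells, a step of 3.37 and 2.84. Guide and passenger arms of miR-21 were both higher in every host array than in either naive array.

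**Figure D3:**
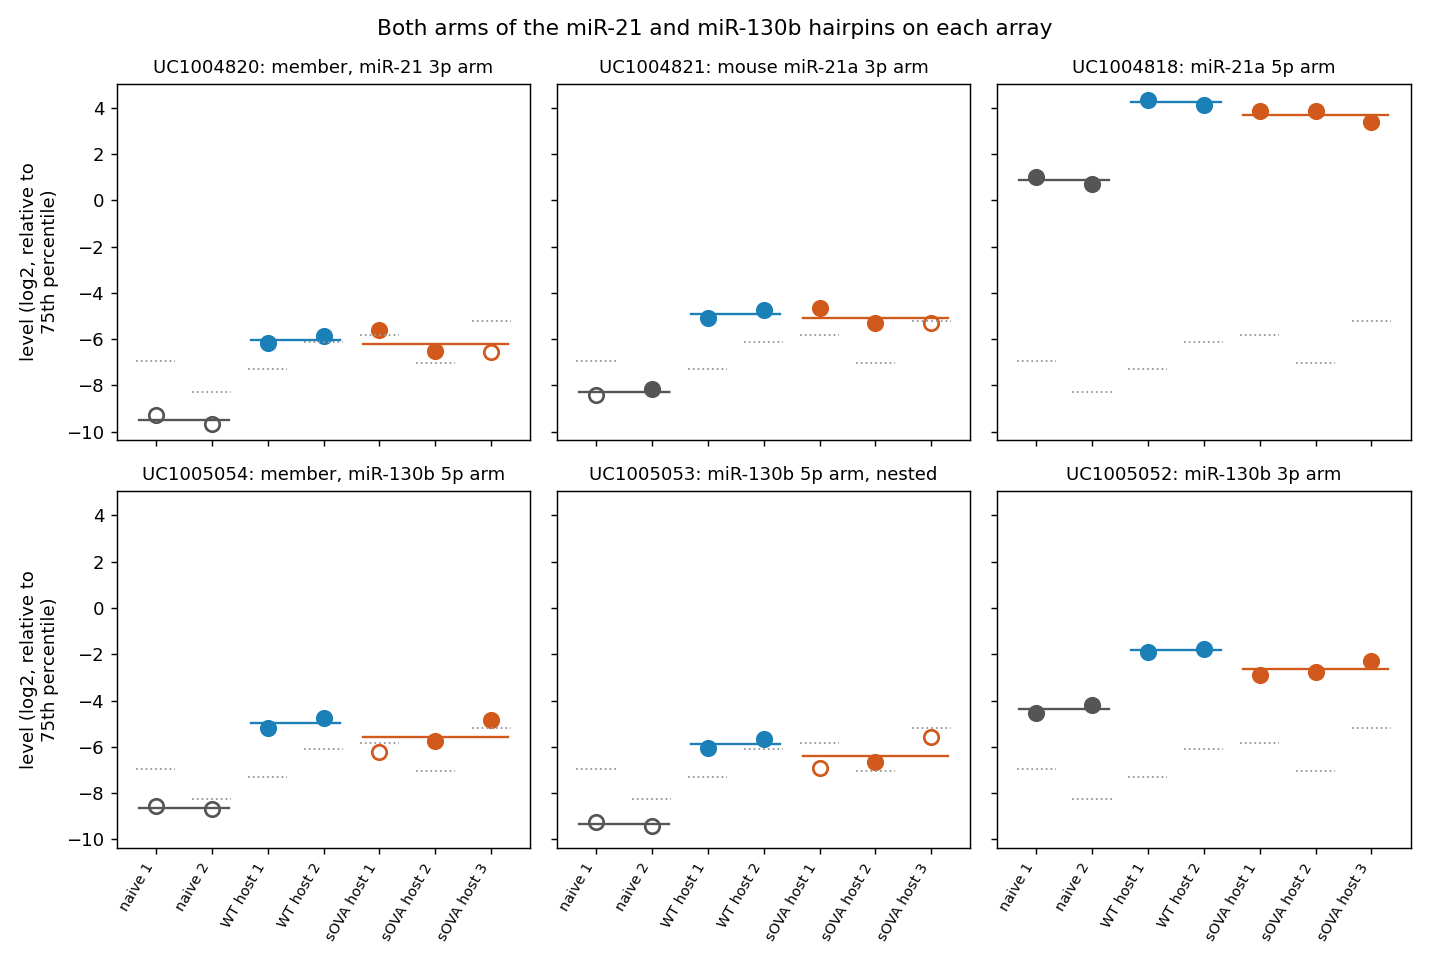
Level (log2, relative to the 75th percentile) of probes to both arms of the miR-21 hairpin (top) and the miR-130b hairpin (bottom) on the 7 arrays, with open points not detected and dotted lines at the lowest level well above background. In all 6 panels every host array lies above both naive arrays, by 3.37 on average for miR-21a-5p and 2.54 for miR-130b-3p in WT host.

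All 4 probes had every WT host and every sOVA host array above both naive arrays. Over the 342 features tested, 44.4% did so for WT host and 32.2% for sOVA host, and since the probes were chosen on this contrast the count says nothing further about them.

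Between the activated groups, none of the 4 probes differed beyond the spread of the arrays (limma over 342 features, Benjamini-Hochberg adjusted). No feature of the 342 was called (0%), while 41 (12%) had an unadjusted p under 0.05. UC1006364 was higher in sOVA host by 1.23 log2 units (SE 1.20, 95% interval -1.68 to 4.14, adjusted p = 0.81 by limma). UC1006410 was higher by 0.64 (SE 1.31, interval -2.54 to 3.81, adjusted p = 0.86 by limma). UC1005054 was at -0.63 relative to WT host (SE 0.45, interval -1.71 to 0.45, adjusted p = 0.71 by limma), and UC1004820 at -0.19 (SE 0.38, interval -1.12 to 0.74, adjusted p = 0.86 by limma). UC1005054 and UC1004820 entered the test only because WT host detected them on all its arrays, against 2 of 3 sOVA host arrays and 0 of 2 naive arrays. WT host is also where their mean was higher, so the filter bears on their comparison. In every case the WT host and sOVA host arrays overlapped, whereas they did not overlap for 23.4% of the 342 features. The intervals of the first pair allow differences of several log2 units in either direction, so a p above the threshold does not show that the hosts were alike.

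The size of the host difference for UC1006364 and UC1006410 moved with several single arrays. Without sOVA host replicate 3 it was 0.23 for UC1006364 and -0.56 for UC1006410, and without WT host replicate 1 it was 0.48 and 0.09. Without WT host replicate 2 it was 1.98 and 1.18, and without sOVA host replicate 2 it was 2.14 and 1.77. Without sOVA host replicate 3 UC1005054 moved to -1.02 (adjusted p = 0.054 by limma, still above the threshold) and UC1004820 to -0.02. UC1005054 was at -0.31 without sOVA host replicate 1, and UC1004820 at -0.51 without the same array. Within slide row 1 (1 WT host and 2 sOVA host arrays) the differences were 0.97, -0.02, -0.81 and 0.14 in the order of the probes above, and within row 2 (1 of each) 2.49, 2.49, -0.06 and -0.69. sOVA host replicate 3 was the only sOVA host array in row 2. With slide row as a block the differences were 1.60, 0.87, -0.54 and -0.23 (adjusted p 0.31 to 0.77 by limma).

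**Figure D4:**
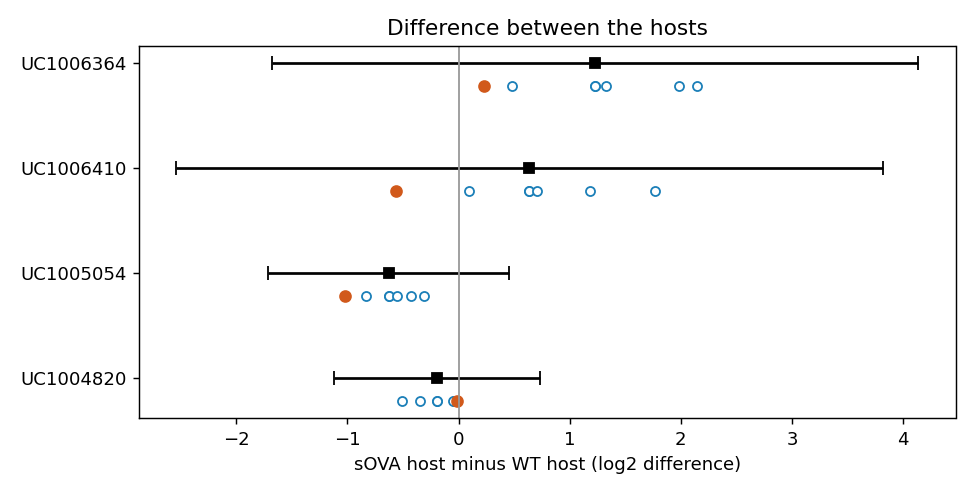
Difference between sOVA host and WT host (log2) for the 4 probes: squares with bars are the fitted difference and its 95% interval, circles leave out 1 array each, and the filled circle leaves out sOVA host replicate 3. All 4 intervals contain 0, and the UC1006410 difference turns from 0.64 to -0.56 without that array.

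The choice of the probes largely fixes the sign of their difference from naive cells, and the naive values of UC1006410 were surrogates. As a description, the range of this difference over each left-out array stayed above 0 for every probe. It was 5.93 to 7.80 in WT host and 7.09 to 9.03 in sOVA host for UC1006364, and 4.72 to 6.01 and 4.80 to 7.13 for UC1006410. It was 3.46 to 3.87 and 2.65 to 3.35 for UC1005054, and 3.26 to 3.64 and 2.94 to 3.45 for UC1004820.

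The features most like each probe over the 7 arrays were taken by Pearson r of level among tested features, leaving out the 4 probes and the related probes above. Since the arrays fall into naive and host arrays, these values rest largely on that step and carry no test. For UC1006364 the top 5 were miR-296-5p (r = 0.98), miR-93-3p (0.96), miR-296-3p (0.96), UC1006147 (0.96) and UC1006064 (0.95). For UC1006410 they were UC1004656 and UC1004654, both to U1 (0.97 and 0.96), then miR-423-3p (0.96), miR-130a-3p (0.95) and UC1004795 (0.95). For UC1005054 they were the passenger arm miR-18a-3p (0.996), UC1004794 (0.99), miR-106b-3p (0.99), UC1005610 (0.99) and miR-484 (0.99). For UC1004820 they were UC1004819 (0.99), UC1005422 (0.98), miR-21a-5p (0.98), UC1005178 (0.98) and miR-96-5p (0.97). Of the 5, quantile normalization kept 2, 3, 3 and 4 in the order of the probes, and leaving out the 2 dimmest arrays kept 2, 2, 2 and 1.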

How the data were processed

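Small RNA was labelled with Cy3 from 250 ng of RNA, per the labels' protocols and design text. Intensity in the scanner files deposited by the authors is linear, and Feature Extraction had subtracted the background, per the file headers; version 9.5.1.1 stands in the files and 10.6 in the submitters' processing notes. Spot flags were used as deposited. The authors' deposited log2 value table (1776 rows, column medians 5.69 to 5.70, centring and background correction unknown) was not used, since 4 of its rows carried the name of a probe and 0 of them that of a member. Spots flagged as outliers were left out, the rest averaged as log2, and arrays scaled to the 75th percentile of the probes detected on all arrays. Nested targets with a common start were merged (1753 features), and the 342 that some group had detected on each of its arrays were fitted with limma 3.58.1 in R 4.3.3 (lmFit, eBayes, group means over 7 arrays), adjusted by the Benjamini-Hochberg method at 0.05. On simulated data 58.4% of changes of 2 log2 units between the hosts were recovered. Targets were matched to RefSeq mature miRNAs when equal, or when nested with at least 18 bases and the same start. Named features were the 4 probes, probes sharing a start, a seed or at least 14 bases, the 5 most alike per probe, and marker miRNAs; the markers miR-122, miR-143 and miR-145 were not analysed here. The members and lists were chosen with earlier results of these data known. Replicate numbers were not taken to pair arrays.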

Additional observations from a re-analysis of the deposited data

How the results depend on the processing

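For the 4 probes the difference from naive cells kept its direction under every alternative that gave a value (16 each per comparison), which their choice largely fixes. The lowest values, from normexp background correction, were 5.50, 3.56, 2.55 and 2.15 in WT host. No alternative made a host difference pass the threshold (adjusted p 0.054 to 0.997 by limma). The sign turned for UC1006410 with the replicate block (-0.56), without the 2 dimmest arrays (-0.021) and within slide row 1 (-0.021), the last an alternative chosen after seeing the data, and for UC1004820 without the 2 dimmest arrays (0.14) and within slide row 1 (0.14). For the hosts, the replicate block repeats the value without sOVA host replicate 3, the only array numbered 3. The 2 dimmest arrays are the host arrays of row 2, so leaving them out repeats slide row 1. The ranges with 1 array left out were 0.23 to 2.14, -0.56 to 1.77, -1.02 to -0.31 and -0.51 to -0.018 in the order of the probes. Over all features the host comparison gave 27 calls with the replicate block and 49 without the 2 dimmest arrays, and 0 to 70 with 1 array left out. For WT host minus naive the 64 calls became 39 with the percentile over all probes, 41 with normexp, 16 without the filter, 25 over features detected on all 7 arrays, 109 with slide row as a block, 139 with the replicate block and 125 without the 2 dimmest arrays, with 12 to 160 when 1 array was left out. For sOVA host minus naive the 72 became 25, 34, 125 and 156 without the filter, over features detected on all arrays, with the row block and without the 2 dimmest arrays, and 11 to 131 with 1 array left out. The percentile over all probes moved the median of all tested features by -0.51 in WT host and -0.82 in sOVA host against naive. The cause of these changes was not tested. Same-numbered arrays deviated together in some pairs and apart in others (r of deviations -0.60 to 0.35), and the numbers were not taken as pairs. Deviations within naive and within WT host mirror each other by construction (r = -1), so this cannot exclude pairing. Arrays of different groups in the same slide row all deviated together (r 0.18 to 0.61), and the row block is given beside the host differences. The filter on features detected on all 7 arrays left out the 4 probes, and the deposited value table could not be used for them. A probe near the background has only a bound, and depth here means signal over background.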
